A study of Homo sapiens with 12 samples.

Results

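The 58 genes described here encode proteins of the extracellular matrix, the meshwork of collagens, glycoproteins and proteoglycans that cells secrete around themselves. They were chosen by the listing of genes that differed between constriction and control in MCF-10A, so every MCF-10A value here describes a selected set, and the calls made on these libraries are description and support no difference. Of the 2680 genes in the MCF-10A table, 62 belonged to the Gene Ontology term for the extracellular matrix. KRT1, TNFRSF11B, TGFB3 and BMP7 were left out because they also belong to terms for keratinisation or cytokine activity, which leaves 58. Across the 3 tables of the series, 3090 distinct genes were listed.

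MCF-10A is a non-malignant human breast epithelial line, and the other 2 lines are the breast cancer line MDA-MB-231 and its derivative LM2. RNA was sequenced from cells that transited channels of 5 × 5 × 150 µm at hydrostatic pressures of 7 to 33 cmH2O, and from untransited control cells. Constriction cells came from several chips run in parallel and were collected upon transit. Each line had 2 libraries per group, 12 in all. The MCF-10A libraries held 29978695 and 35494737 reads for constriction replicates 1 and 2, and 36123663 and 46436989 reads for control replicates 1 and 2. The study's methods record a full culture flask for control replicate 1, which also gave more cells and more RNA than control replicate 2. Both constriction samples are recorded at lower cell concentrations than either control, and their RNA amounts lay between those of the 2 controls.

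Epithelial cells sit on a basement membrane, a thin sheet of laminins, collagen IV, nidogens and heparan sulfate proteoglycans, and they bind it through integrins. Fibrillar collagens, elastic fibres and small leucine-rich proteoglycans lie further out, and in breast tissue fibroblasts make most of them. Metalloproteases cut these proteins, and the matrix also holds growth factors and WNT ligands near the cell surface.

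In MCF-10A, 55 of the 58 genes had 0 reads in both constriction libraries, while each of the 58 was detected in both controls. The exceptions were IGFBP7, whose normalised counts were higher in both constriction libraries than in both controls, FBLN5, whose reads were high in constriction replicate 1 alone, and DGCR6, with 1 read in constriction replicate 2. Zero reads after transit were common to the table as a whole, with 2402 of the 2680 listed genes (89.6%) at 0 in both constriction libraries. For 56 of the 58 genes both constriction libraries lay below both controls on normalised counts, beside 94.5% of all listed genes. With edgeR's quasi-likelihood test at an adjusted p-value under 0.05, 48 of the 58 were called, beside 86.9% of all listed genes, and because the listing used this contrast nothing is read from that count. With the replicate number as a block the count was 28 (54.6% of all listed genes), and with limma it was 19 (35.1% of all listed genes). Leaving out any 1 of the 4 libraries gave 0 calls among the 58 with edgeR, and 0 to 4 among the 2680 listed genes. At an unadjusted p-value under 0.05, edgeR then had 56 and 57 of the 58 without constriction replicate 1 or 2, beside 2495 and 2657 of the 2680. Without control replicate 1 or 2 it had 36 and 35 of the 58, beside 1701 and 1706 of the 2680. The 10 genes that were not called were the 2 with higher means after transit and 8 whose control replicates were more than 5-fold apart.

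**Figure D1:**
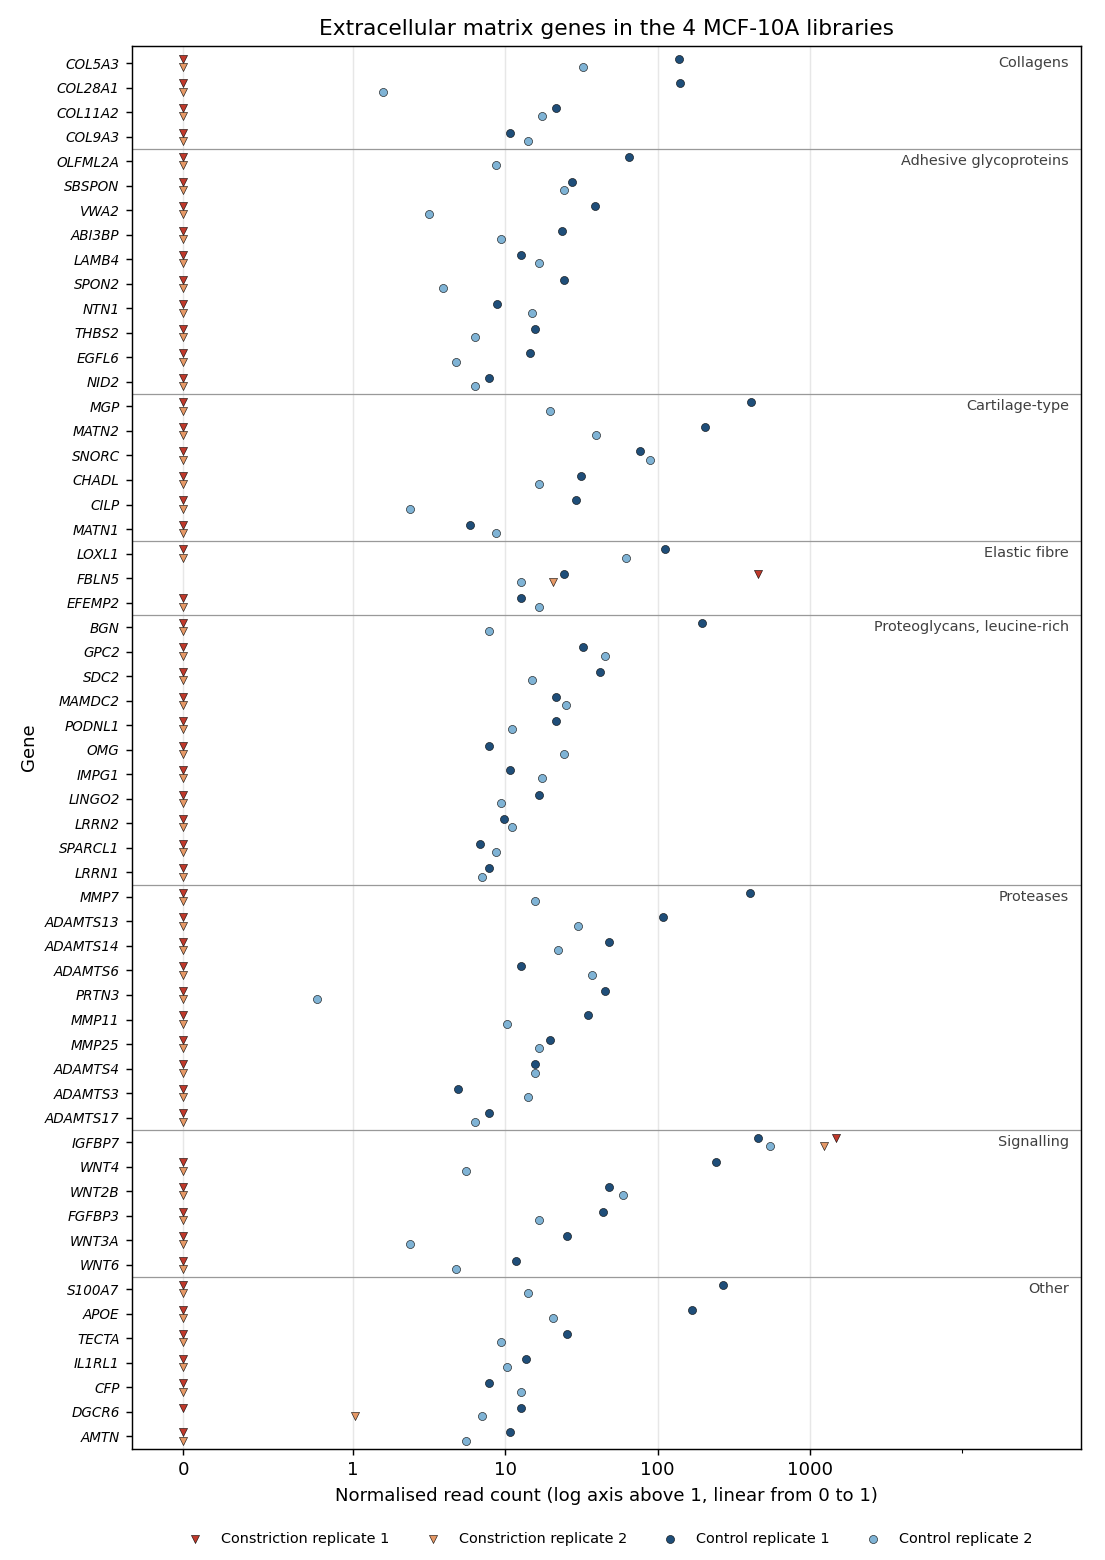
Normalised read counts (x axis, log above 1 and linear from 0 to 1) of 57 of the 58 extracellular matrix genes (y axis, grouped by role) in the 4 MCF-10A libraries; each point is 1 library. Both constriction points lie at 0 for all genes shown except FBLN5, IGFBP7 and DGCR6, and only IGFBP7 has both constriction points to the right of both control points.

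Most of these genes were scarce in control cells. The median of the mean control normalised count was 17.8, beside 20.6 for the 1131 other listed protein-coding genes, and 32 of the 58 genes had a mean under 20. Per gene length, 52 of the 58 were below 1 FPKM (read counts scaled by gene length and depth) in control cells. The 6 at or above 1 FPKM were S100A7 (mean 7.44 FPKM), IGFBP7 (7.24), MMP7 (2.56), MGP (2.31), APOE (1.21) and BGN (1.17). In control replicate 1 alone 8 genes reached 1 FPKM, and in control replicate 2 alone only IGFBP7 did. S100A7 led this order through control replicate 1 alone, where it had 14.2 FPKM against 0.723 in control replicate 2, so its place above IGFBP7 lay within the spread of the controls. A mean of at least 10 normalised counts over the 4 libraries was reached by 27 of the 58 genes.

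How far a count of 0 lies from the control level depends on depth, and the part of cell and RNA input in the zeros was not tested. At the mean control level, the 55 genes without reads would each have given between 5.87 and 179 reads in constriction replicate 1 and between 6.83 and 209 in constriction replicate 2, with medians of 14.5 and 16.9. Summed over the 55 genes, that level corresponds to 1795 and 2090 reads, where 0 were counted, and with control replicate 2 alone to 783 and 912 reads. Against a floor of 3 reads per library, the 55 genes were from at least 2.1-fold (NID2 and ADAMTS17) to at least 64.3-fold (MGP) lower, with a median bound of 5.2-fold. With control replicate 2 alone as the reference the median bound was 4.23-fold and the highest 26.5-fold (SNORC), and 5 genes were at or under the floor. Such floors and the interval given below cover counting error only. The median log2 fold change of the 58 genes with those at 0 reads placed at their bound was -2.34, beside -2.27 for all listed genes. Fewer cells making a transcript and less of it per cell cannot be told apart in bulk RNA.

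The 2 constriction libraries differed in how the genes with reads were spread over read numbers. Of the 2680 listed genes, constriction replicate 1 had 2489 at 0 reads, 25 at 1 to 4 reads, 4 at 5 to 19, 7 at 20 to under 100 and 155 at 100 or more. Constriction replicate 2 had 2478, 71, 45, 53 and 33 genes in the same classes. The 58 genes had 56 at 0 and 2 at 100 or more reads in replicate 1, and 55 at 0, 1 at 1 to 4, 1 at 20 to under 100 and 1 at 100 or more in replicate 2. In control replicate 1 the lowest class was nearly empty for the table, with 29 genes at 0 reads, and it held none of the 58.

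Collagens are triple-helical proteins that give the matrix its tensile strength, and 4 chains were among the 58. COL5A3, a chain of collagen V that sets the width of collagen I fibrils, had 141 and 41 reads in control replicates 1 and 2 and 0 in both constriction libraries, a normalised control mean of 85.2 ± 74.7 (SD, n = 2). COL28A1, a chain of a collagen with von Willebrand factor domains, had 143 reads in control replicate 1, 2 in control replicate 2 and 0 in both constriction libraries. Its control level therefore came from 1 library, and without that library it would be under the floor in both groups. COL11A2 had 22 and 22 control reads, and COL9A3 had 11 and 18, again with 0 and 0 after transit. These chains belong to collagens XI and IX, which occur with collagen II in the fibrils of cartilage. The bounds were at least 25.4-fold lower for COL5A3, 21.1-fold for COL28A1, 5.79-fold for COL11A2 and 3.72-fold for COL9A3, and without control replicate 1 that of COL5A3 was 9.63-fold.

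The 11 basement membrane and adhesive glycoproteins all had 0 reads in both constriction libraries. OLFML2A, an olfactomedin-domain protein that binds chondroitin sulfate, had 66 and 11 reads in control replicates 1 and 2, and SBSPON, a thrombospondin-repeat protein, had 28 and 31. VWA2, a protein of basement membranes with von Willebrand factor A domains, had 40 and 4. The order of the control replicates was thus clear for OLFML2A and VWA2, higher in replicate 1 by 7.44-fold and 12.4-fold on normalised counts, while those of SBSPON were 1.12-fold apart. LAMB4, the only laminin chain in the group, had 13 and 21 control reads. ABI3BP, SPON2, NTN1, THBS2, EGFL6 and NID2 were also in this list, with mean control normalised counts from 7.07 (NID2) to 16.5 (ABI3BP). Nidogen 2, encoded by NID2, links laminin to collagen IV, and its 8 reads in each control library set a bound of only 2.1-fold.

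Among the 6 cartilage-type matrix proteins, MGP had the highest mean control level and MATN1 the lowest, at 216 and 7.28 normalised counts. In control replicate 2 alone SNORC was highest and CILP lowest, at 89.2 and 2.37. MGP, the vitamin K-dependent matrix Gla protein that inhibits calcification, had 421 and 25 reads in control replicates 1 and 2 and 0 in both constriction libraries. MATN2, a matrilin that forms filaments in many tissues, had 209 and 50, and SNORC, a small transmembrane proteoglycan of cartilage, had 78 and 113. SNORC therefore had similar control replicates and a bound of at least 24.6-fold, while the larger bounds of MGP (64.3-fold) and MATN2 (36.3-fold) came mostly from control replicate 1. Without control replicate 1 the bounds were 5.87-fold for MGP and 11.7-fold for MATN2. CHADL, CILP and MATN1 had 32 and 21, 30 and 3, and 6 and 11 reads in control replicates 1 and 2.

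The elastic fibre list held 3 genes, and it contained 1 of the 2 genes with a higher mean after transit. LOXL1, an enzyme that cross-links tropoelastin, had 115 and 79 reads in control replicates 1 and 2 and 0 in both constriction libraries, at least 26.0-fold lower. EFEMP2 (fibulin-4), which guides that cross-linking, had 13 and 21 control reads and none after transit. FBLN5 (fibulin-5), which tethers tropoelastin and LOXL1 to microfibrils, had 25 and 16 control reads, 379 in constriction replicate 1 and 20 in constriction replicate 2. On normalised counts its constriction libraries read 457 and 20.7 and its controls 24.5 and 12.6, so the groups overlapped. The mean was 12.9-fold higher after transit, and without constriction replicate 1 it was 1.12-fold higher. The log2 fold change was 3.62, and 1.45 with TMM factors of the listed genes. All 147 listed genes with a higher mean after transit had a higher normalised count in constriction replicate 1 than in replicate 2, and in 61 of them both constriction libraries lay above both controls. FBLN5 lies at chr14:91869412-91947987 on the minus strand of GRCh38.

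Of the 11 proteoglycans and leucine-rich proteins, none had a read after transit. BGN (biglycan), a small leucine-rich proteoglycan that binds collagen I and TGF-β, had 199 and 10 reads in control replicates 1 and 2. GPC2, a glypican anchored to the membrane by a lipid, had 33 and 57, and SDC2, a syndecan that carries heparan sulfate, had 43 and 19. BGN was 24.7-fold higher in control replicate 1 than in replicate 2 on normalised counts, and GPC2 was 1.39-fold higher in replicate 2. The bounds were at least 30.2-fold, 11.5-fold and 8.49-fold lower for BGN, GPC2 and SDC2, and without control replicate 1 those of BGN and SDC2 were 2.35-fold and 4.46-fold. MAMDC2, PODNL1, OMG, IMPG1, LINGO2, LRRN2, SPARCL1 and LRRN1 had mean control normalised counts from 7.47 (LRRN1) to 23.4 (MAMDC2). OMG, LINGO2 and the LRRN genes are best known from neurons, where they encode leucine-rich membrane proteins.

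The 10 matrix proteases also had 0 reads in both constriction libraries. MMP7 (matrilysin), a small metalloprotease that epithelial cells themselves secrete, had 414 and 20 reads in control replicates 1 and 2. ADAMTS13, the protease that trims von Willebrand factor, had 111 and 38, and ADAMTS14, a procollagen N-propeptidase, had 49 and 28. All 3 were higher in control replicate 1, by 25.7-fold, 3.62-fold and 2.17-fold on normalised counts. The bounds were at least 62.6-fold lower for MMP7, 20.6-fold for ADAMTS13 and 10.4-fold for ADAMTS14. Without control replicate 1 they were 4.7-fold, 8.93-fold and 6.58-fold. PRTN3, a serine protease of neutrophil granules, had 46 reads in control replicate 1 and 1 in control replicate 2. ADAMTS6, MMP11, MMP25, ADAMTS4, ADAMTS3 and ADAMTS17 had mean control normalised counts from 7.07 to 24.9.

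Signalling proteins held in the matrix included the gene with the highest normalised count of the 58. IGFBP7, a secreted binding protein of insulin-like growth factors, had 1234 and 1185 reads in constriction replicates 1 and 2 and 467 and 697 in control replicates 1 and 2. On normalised counts these were 1487 and 1227 against 457 and 550, so the groups did not overlap. The log2 fold change was 1.43 ± 0.19 (standard error from the spread of the 2 libraries in each group), a ratio of 2.69. IGFBP7 was listed on this contrast, and edgeR did not call it at an adjusted p-value under 0.05. With TMM factors of the listed genes the log2 fold change was 2.09. Per gene length, IGFBP7 had 6.70 and 7.78 FPKM in control replicates 1 and 2 against 21.3 and 17.3 FPKM in the constriction libraries. IGFBP7 lies at chr4:57030773-57110385 on the minus strand, where its exons overlap those of POLR2B and IGFBP7-AS1 on the opposite strand. The sources used here do not say whether counting used strand, so reads from such overlapping genes cannot be told apart.

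The WNT ligands of this list, secreted lipid-modified proteins that act over short distances, had 0 reads after transit. WNT4, a ligand with roles in mammary side branching, had 247 and 7 reads in control replicates 1 and 2, a 43.7-fold difference on normalised counts. WNT2B had 49 and 75, so its 2 controls were close and its bound was at least 15.9-fold. FGFBP3, WNT3A and WNT6 had mean control normalised counts of 30.3, 13.9 and 8.24.

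The remaining 7 genes had mixed functions. S100A7 (psoriasin), a calcium-binding protein of stressed and differentiating epithelia, had 274 and 18 reads in control replicates 1 and 2 and 0 in both constriction libraries. APOE, a lipid-carrying apolipoprotein, had 172 and 26, and TECTA, a protein of the tectorial membrane of the inner ear, had 26 and 12. S100A7 and APOE were 18.9-fold and 8.2-fold higher in control replicate 1 on normalised counts. DGCR6, which resembles laminin chains in part of its sequence, had 13 and 9 control reads, 0 in constriction replicate 1 and 1 in constriction replicate 2. Its ratio of constriction to control was 0.0579 with an exact 95% counting interval from 0.0014 to 0.358. A near-identical copy, DGCR6L, lies close to it on chromosome 22, and S100A7 has a close paralogue in S100A7A, so their counts are uncertain. IL1RL1, CFP and AMTN had 14 and 13, 8 and 16, and 11 and 7 reads in control replicates 1 and 2.

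**Figure D2:**
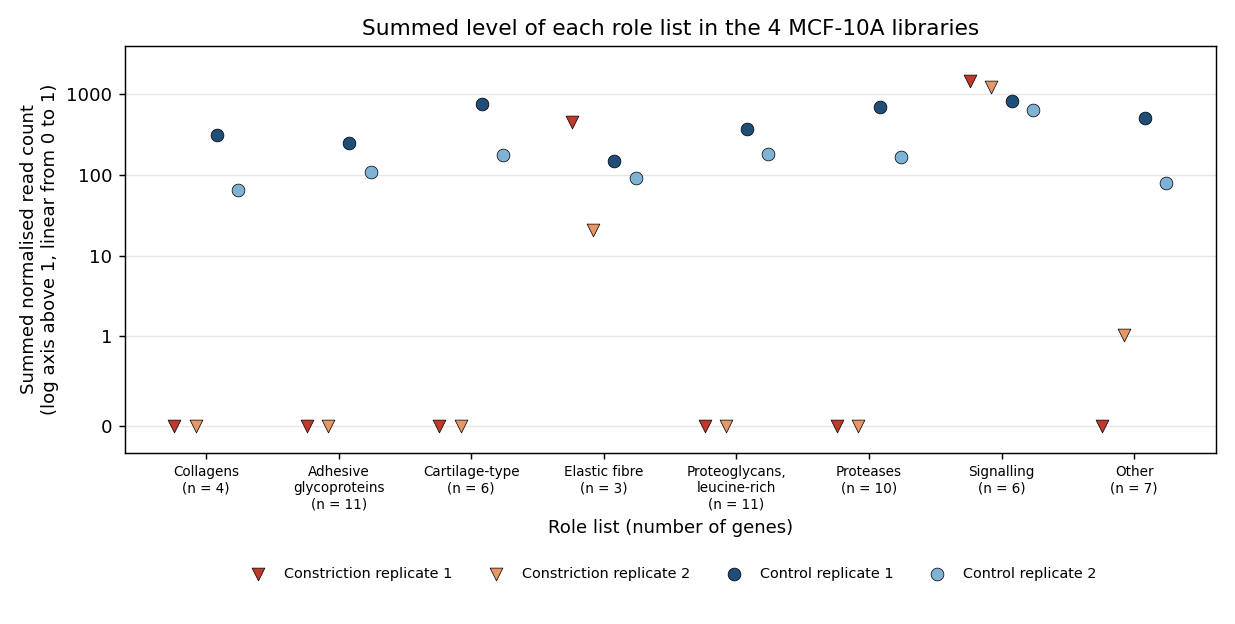
Summed normalised read count (y axis, log above 1 and linear from 0 to 1) of each role list (x axis, with the number of genes) in the 4 MCF-10A libraries; each point is 1 library. In 5 of the 8 lists both constriction sums are 0, the signalling sum is carried after transit by IGFBP7, and the elastic fibre sum by FBLN5.

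The summed level of each of the 8 lists was higher in control replicate 1 than in replicate 2. By gene, 39 of the 58 (67.2%) were higher in control replicate 1, beside 66.6% of the other listed protein-coding genes, so single genes carry part of the sums. In the proteoglycan list 5 of 11 genes were higher there, and without BGN, left out after its values were seen, the sums were 177 and 174 normalised counts. For the cartilage-type list the sums were 760 and 176 normalised counts in control replicates 1 and 2, for the proteases 703 and 169, and for the collagens 310 and 65.5. Across all 58 genes the sums were 3878 and 1514 in the controls and 1944 and 1248 in the constriction libraries. IGFBP7 made up most of both constriction sums, and without it (a split chosen after the values were seen) they were 457 and 21.7, of which FBLN5 gave 457 and 20.7.

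The control libraries differed widely in part of these genes. Control replicates were more than 5-fold apart on normalised counts in 14 of the 58 genes (24.1%), and all 14 were higher in control replicate 1. The share was 12.6% among all listed genes and 18.0% among the 1131 other listed protein-coding genes, with 179 of 204 higher in control replicate 1. In the listed cell-cell adhesion genes it was 12 of 38 (31.6%), and in the listed cytokine genes 4 of 24 (16.7%). The 14 genes were COL28A1, PRTN3, WNT4, MMP7, BGN, MGP, S100A7, VWA2, CILP, WNT3A, APOE, OLFML2A, SPON2 and MATN2, with ratios from 88.7-fold (COL28A1) to 5.18-fold (MATN2). They came from 7 of the 8 role lists, the elastic fibre proteins being the exception. At the other end, 30 of the 58 genes had control replicates within 2-fold of each other. The part of cell number or culture in this difference was not tested.

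**Figure D3:**
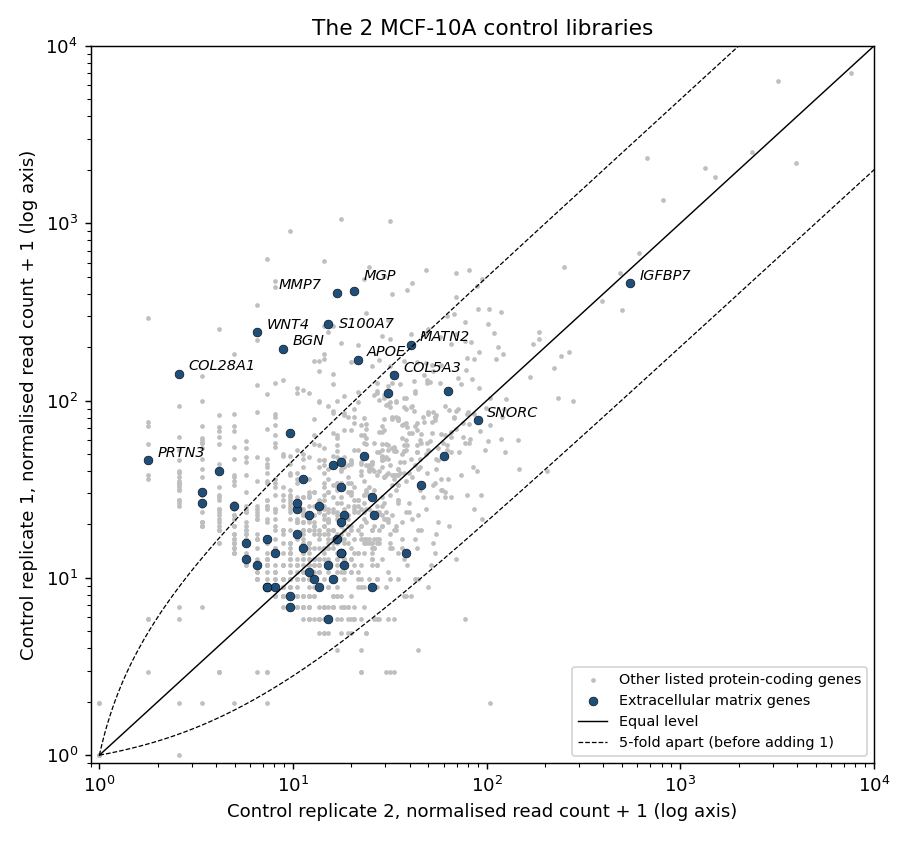
Normalised read count + 1 in control replicate 1 (y axis, log) against control replicate 2 (x axis, log) for the 58 extracellular matrix genes and the 1131 other listed protein-coding genes; each point is 1 gene. The 14 genes beyond the 5-fold line all lie on the side of control replicate 1, while IGFBP7 and SNORC lie near the line of equal level.

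For a gene whose control replicates were close, the control level depends less on which control library is used. SNORC, LOXL1, WNT2B and GPC2 had the highest control means among the genes without reads after transit whose control replicates were within 2-fold. At the lower of their 2 control levels, they would have given 63.3, 51.7, 39.8 and 26.8 reads in constriction replicate 1 and 73.8, 60.3, 46.3 and 31.2 in constriction replicate 2. Each had 0 reads in both. Exons of SNORC overlap those of NGEF and of GIGYF2, the latter on the same strand. Exons of LOXL1 overlap those of LOXL1-AS1, and exons of WNT2B those of ST7L, so reads in these stretches are uncertain. At the lower control level of COL28A1, 1.31 and 1.53 reads would have been counted, which a count of 0 does not separate from an unchanged level. For all genes named here these expected reads cover counting error only. Because the genes were listed on this contrast, the expected reads support no difference for any of them.

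In comparison with similar lists, the share of genes at 0 reads in both constriction libraries was 94.8% for the 58 matrix genes. It was 92.1% for the cell-cell adhesion genes, 100% for the cytokine genes and 90.7% for the other listed protein-coding genes. The median mean control levels were 22.2, 17.8 and 20.6 normalised counts for these 3 sets. The median gene length was 4724 bases for the matrix genes, 4964 for the cell-cell adhesion genes, 1982.5 for the cytokine genes and 3942 for the other listed protein-coding genes. These values stand side by side without a test, since all sets were listed on the same contrast.

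Receptors, enzymes and other matrix genes outside the 58 were looked up in the MCF-10A table. Of 151 such genes in 7 lists, 7 (4.64%) were in the table, beside 4.56% of all annotated genes, and all 7 had lower means after transit. The 4.56% covers coding and noncoding genes together, while 1189 of the 2680 listed genes were protein-coding. The shares are therefore not like for like, and nothing is read from their closeness. Of 35 integrins and other matrix receptors, 3 were listed. CD36, a receptor for thrombospondin, had 926 and 11 reads in control replicates 1 and 2, ITGAM, an integrin α chain of myeloid cells, had 124 and 7, and ITGB7, an integrin β chain of lymphocytes, had 34 and 23. All had 0 reads after transit, and CD36 and ITGAM were 104-fold and 22.0-fold higher in control replicate 1 than in replicate 2 on normalised counts. Of 12 enzymes of hyaluronan and heparan sulfate, HAS1, HYAL1 and SULF1 were listed, with mean control normalised counts of 13.4, 42.0 and 19.8. HAS1 was higher in control replicate 1 (25 and 3 reads) and SULF1 in control replicate 2 (9 and 39 reads). HAS1 makes hyaluronan, HYAL1 degrades it, and SULF1 trims sulfate from heparan sulfate. Of 33 metalloproteases and inhibitors, RECK, a membrane-bound inhibitor, was listed, with 103 and 158 control reads and 0 and 5 after transit. None of 23 core basement membrane genes, 17 fibrillar collagen genes, 19 fibronectin, tenascin and matricellular genes or 12 cross-linking genes was in the table. These lists leave out the 58 genes, which hold COL5A3, COL11A2, LOXL1, NID2, LAMB4 and THBS2 of the same families. The counts of listed genes in them are therefore low by construction.

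Markers of cell types could be read only where the table lists them. None of 8 markers of basal mammary epithelium and 1 of 8 markers of luminal epithelium was listed, so the epithelial identity of MCF-10A could not be checked. The luminal marker KRT19 had 5 and 21 reads in control replicates 1 and 2 and 0 after transit. Markers of other cell types were listed in small number. Of 9 fibroblast markers, PDGFRB was listed, with 22 and 22 control reads. Of 7 endothelial markers, PECAM1 had 71 and 48 and ESAM 17 and 7, so the summed normalised counts were 86.1 and 43.4. Of 7 leukocyte markers, ITGAM was listed, with normalised counts of 121 and 5.53 in control replicates 1 and 2, and of 7 chondrocyte markers none was. Each listed marker had 0 reads in both constriction libraries. The part of other cell types in the levels of the matrix genes was not tested.

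The 58 genes were spread over 20 chromosomes, with at most 8 on 1 chromosome (chromosome 1), and all were protein-coding. Exons of 26 of them overlapped exons of another gene in the GENCODE annotation, 22 with a gene on the opposite strand and 6 with a gene on the same strand. For 3 genes an overlapping gene was itself in the MCF-10A table. MGP overlaps C12orf60, which had 41 and 68 control reads in replicates 1 and 2 and 0 after transit, so its controls did not share the excess of MGP in replicate 1. MAMDC2 overlaps MAMDC2-AS1 (18 and 9 control reads), and TECTA overlaps AP000646.1 (11 and 8).

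Promoter sequences were available for 46 of the 58 genes from RefSeq (GRCh38.p14); genes without an entry included ADAMTS4, CHADL, COL9A3, IGFBP7, MATN1, MATN2, MGP, MMP25, NTN1, SBSPON and SDC2. In the 250 bases before each start, 4 motifs were searched on both strands. The TATA box (TATAAA) was found in 9 of the 46 promoters (19.6%), beside 11.1% of 27303 promoters in all and 11.2% of the other listed protein-coding genes. Beside the shares of all promoters and of the other listed genes, the CCAAT box (CCAAT) was found in 32.6% (33.0% and 30.6%), the GC box (GGGCGG) in 52.2% (42.3% and 48.1%) and the AP-1 motif (TGANTCA) in 6.52% (6.6% and 8.14%). The median GC content was 60.6% (58.0% and 61.2%). A match describes letters in this window and is no evidence of binding. The sequences of MMP7, S100A7 and BGN are shown because these genes had the highest control means among those whose RefSeq start lay within 300 bases of the annotated gene start, and that of FBLN5 because its mean was higher after transit. They are given 5′ to 3′ on the strand of the gene, ending at the base before the RefSeq start, with motif matches on either strand in capitals. MMP7 lies at chr11:102530748-102530997 (minus strand), S100A7 at chr1:153460652-153460901 (minus strand), BGN at chrX:153494730-153494979 (plus strand) and FBLN5 at chr14:91947695-91947944 (minus strand). The RefSeq starts lie 6, 50, 41 and 293 bases inside the annotated genes, so the FBLN5 window lies wholly within its annotated gene.
MMP7: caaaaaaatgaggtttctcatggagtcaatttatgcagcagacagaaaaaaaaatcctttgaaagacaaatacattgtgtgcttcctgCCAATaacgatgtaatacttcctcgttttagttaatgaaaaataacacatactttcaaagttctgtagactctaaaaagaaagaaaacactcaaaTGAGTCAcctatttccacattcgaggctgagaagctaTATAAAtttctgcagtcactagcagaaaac
S100A7: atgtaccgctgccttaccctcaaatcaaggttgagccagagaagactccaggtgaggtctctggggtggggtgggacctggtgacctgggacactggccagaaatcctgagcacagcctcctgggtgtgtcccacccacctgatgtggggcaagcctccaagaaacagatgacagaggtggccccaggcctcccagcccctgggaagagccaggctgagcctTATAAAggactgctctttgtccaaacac
BGN: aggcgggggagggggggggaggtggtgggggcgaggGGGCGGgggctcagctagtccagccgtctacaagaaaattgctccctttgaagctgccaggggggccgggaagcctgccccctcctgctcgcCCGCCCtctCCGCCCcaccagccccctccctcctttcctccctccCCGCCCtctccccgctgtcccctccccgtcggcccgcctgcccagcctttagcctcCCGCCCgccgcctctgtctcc
FBLN5: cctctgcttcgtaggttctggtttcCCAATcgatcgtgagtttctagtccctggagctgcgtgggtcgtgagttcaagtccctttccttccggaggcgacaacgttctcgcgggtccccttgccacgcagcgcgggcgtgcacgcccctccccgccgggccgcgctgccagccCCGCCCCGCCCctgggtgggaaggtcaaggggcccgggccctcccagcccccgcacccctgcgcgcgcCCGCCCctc

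These 4 windows differed in make-up. MMP7 held a TATA box beginning 30 bases before the start, an AP-1 motif beginning 67 bases before it and a CCAAT box beginning 162 bases before it, at a GC content of 33.6%. S100A7 held a TATA box 28 bases before the start and no other match, at 58.8% GC. BGN held no TATA box but 5 GC boxes, at 74.0% GC, and FBLN5 held 3 GC boxes, 2 of them overlapping, and a CCAAT box, at 71.6% GC.

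Beyond MCF-10A, 2 of the 58 genes were listed in the MDA-MB-231 table of 381 genes and none in the LM2 table of 97 genes. The MDA-MB-231 table was itself listed on its own contrast of constriction and control, so a gene found there had already differed in it. MATN2 had 915 and 1078 reads in MDA-MB-231 constriction replicates 1 and 2 and 1029 and 1533 in control replicates 1 and 2. On normalised counts these were 894 and 996 against 1305 and 1319, so both constriction libraries lay below both controls. The control mean was 1.39-fold above the constriction mean, and the fitted log2 fold change was -0.47 (-0.88 with TMM factors). In edgeR's quasi-likelihood test the p-value was 0.0284 and the adjusted p-value over all annotated genes was 1.0, so the difference did not pass the threshold. Unlisted genes entered that adjustment at a p-value of 1, which can only raise adjusted p-values. Not passing it therefore does not decide whether a listed gene differed. In the same fit 358 of the 381 listed genes had an unadjusted p-value under 0.05. LAMB4 had 12 and 14 reads in the MDA-MB-231 controls and 0 in both constriction libraries, at least 4.78-fold lower, with an edgeR p-value of 0.00318 and an adjusted p-value of 1.0. Among the 381 genes, only RN7SL2 passed the threshold (0.262% of those listed), named after its value was seen. Adjusted over the listed genes alone, 354 of the 381 passed, MATN2 (adjusted p-value 0.038) and LAMB4 (0.0225) among them. With the replicate number as a block 72 genes passed, MATN2 (adjusted p-value 0.341) and LAMB4 (1.0) not among them.

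**Figure D4:**
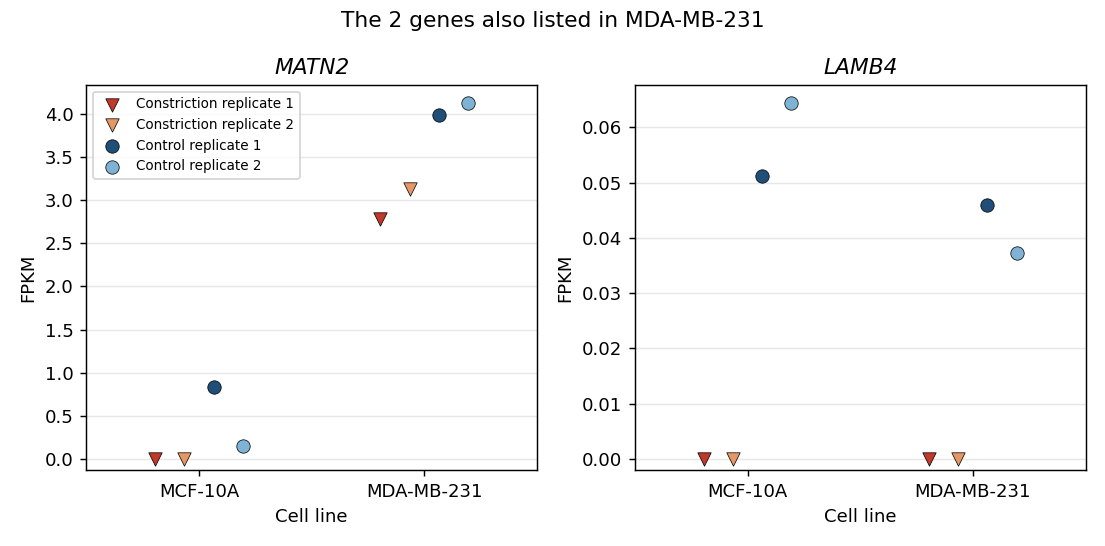
FPKM (y axis, a separate scale in each panel) of MATN2 and LAMB4 in the libraries of MCF-10A and MDA-MB-231 (x axis); each point is 1 library. Both constriction points of each gene lie below both control points within each line, at 0 except for MATN2 in MDA-MB-231.

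MATN2 is located at chr8:97868840-98036716 on the plus strand and LAMB4 at chr7:108023548-108130356 on the minus strand of GRCh38. On FPKM, MATN2 in MDA-MB-231 had 3.99 and 4.13 in the controls against 2.78 and 3.13 in the constriction libraries. In MCF-10A its control libraries had 0.835 and 0.155 FPKM and its constriction libraries 0. LAMB4 stood at 0.046 and 0.0372 FPKM in the MDA-MB-231 controls and at 0.0513 and 0.0645 FPKM in the MCF-10A controls. The lines were normalised separately, so these levels are set side by side only, and whether the contrast in either gene differed between the lines was not tested.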

How the data were processed

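The authors filtered reads with fastp, aligned them to GRCh38 with HISAT2 2.0.5 and counted them per gene with featureCounts 1.5.0-p3, and these counts were deposited. The normalised counts (signal) deposited by the authors equal the counts over 1 DESeq2 (1.20.0) size factor for each library, set within each line. FPKM values were computed by the authors from counts and gene lengths. The deposited log2 fold changes, p-values, adjusted p-values and enrichment statistics of the authors' own comparison, and their group means, were not used, apart from the term membership of genes. Library totals were computed from counts, FPKM and lengths. The members and lists were chosen with earlier results of these data known. Tests were made in edgeR 4.0.16 on the counts of each table with the authors' size factors and group as the term, two-sided, with Benjamini-Hochberg adjustment over 58735 GENCODE 29 genes, unlisted genes entering at a p-value of 1; the script was tested on simulated data. Alternatives used limma 3.58.1, DESeq2 1.42.0, TMM factors, pseudocounts of 0.5 and 10 in place of 1, FPKM and a minimum mean of 10 normalised counts. Others were adjustment over the listed genes alone, the replicate block and each library left out. All TMM factors were computed from the listed genes alone, most of which were lower after transit in MCF-10A. Values in every library were given for up to 3 genes per role list with the highest control mean, genes with any read after transit, genes with a higher mean after transit, genes listed in another line, genes with control replicates over 5-fold apart and a control mean of at least 50, and collagen and laminin chains. Control reads were also given for CHADL, CILP, MATN1, PRTN3, NID2, IL1RL1, CFP and AMTN, which fall outside this rule. The study's list of experiments names a control and a constriction sample under each replicate number, so a replicate block was run as an alternative. The deviations of same-numbered MCF-10A libraries from their group means correlated at -0.0427 over 2680 genes, and those of MDA-MB-231 at 0.0827 over 381 (-0.11 and 0.159 for genes with a mean of at least 10). In MCF-10A the constriction deviation was 0 for the 2402 genes without reads in either constriction library. The MCF-10A correlations therefore cannot show whether the replicates were paired. P-values measure the spread between 2 libraries per group and no wider variation. Each fit also drew on the variances of the other fitted genes, which were listed on the same contrast.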

Additional observations from a re-analysis of the deposited data

How the results depend on the processing

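In MCF-10A, 2329 listed genes and 48 of the 58 matrix genes were called. The counts of listed genes were 1469 with DESeq2, 942 with limma, 1463 with the replicate block and 801 of 1209 genes with a mean of at least 10 normalised counts. Those of matrix genes were 33 with DESeq2, 36 with TMM factors (1741 listed genes), 56 adjusted over the listed genes alone (2565 listed genes), 19 with limma, 28 with the replicate block and 13 of the 27 that passed that minimum. Crossed pairing of the replicates, chosen after seeing the data, gave 5 listed genes and 0 matrix genes in MCF-10A with edgeR (unadjusted, p under 0.05: 2266 and 44). With 1 library left out, edgeR called 0 to 4 listed genes and 0 matrix genes, while at an unadjusted p-value under 0.05 there were 1701 to 2657 and 35 to 57; the lone library is then assumed to vary like the others. The cause of these differences was not tested. In MDA-MB-231, 1 gene was called, against 9 with TMM factors, 8 with DESeq2, 0 with limma (245 at an unadjusted p-value under 0.05), 72 with the replicate block, 8 with the crossed pairing, 354 adjusted over the listed genes alone and 0 to 8 with 1 library left out. MATN2 and LAMB4 passed there only with adjustment over the listed genes alone, at unchanged log2 fold changes of -0.47 and -6.80 and adjusted p-values of 0.038 and 0.0225, because fewer genes entered the adjustment; that list was chosen on the same libraries. The value of LAMB4 is set by the prior count, since it has 0 reads in 1 group, and was -3.86 with limma. Their other adjusted p-values ranged from 0.306 to 1.0, and the replicate block changed neither call. LAMB4 has no value under the minimum of 10.

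The median log2 fold change of the 58 genes with pseudocount 1 was -4.12. It was -5.08 with pseudocount 0.5, -1.40 with pseudocount 10, -0.15 on FPKM, -4.49 to -3.73 with 1 library left out and -5.31 for the 27 genes past the minimum, of which 25 were lower and 25 had 0 reads in both constriction libraries. Most genes have 0 reads in 1 group, so the pseudocount sets this median. TMM factors moved the median of all listed genes by -0.49 on the log2 scale. Without constriction replicate 1 the log2 fold change of FBLN5 was 0.15 in place of 3.62, and with TMM factors FBLN5 and IGFBP7 were at 1.45 and 2.09 in place of 3.62 and 1.43. Depth limits the genes with fewest control reads most.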
